A study of Mus musculus with 12 samples.

Results

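The genes described here encode 10 secreted factors that act on blood or lymph vessels, Vegfa, Vegfb, Vegfc, Pgf, Adm, Apln, Angpt1, Angpt2, Angptl2 and Angptl4, in mouse embryonic fibroblasts (MEFs). They were chosen by symbol, and each was read from the probe set that lists its symbol alone and has the highest mean over all 12 arrays. Of the 10, 9 were measured in this way, out of 17097 genes in all, and Angptl2 was not analysed here. The 4 groups held 3 arrays each: CBP/p300 double-knockout (dKO) MEFs with 2,2'-dipyridyl (DP), dKO MEFs with ethanol, wild-type (WT) MEFs with DP and WT MEFs with ethanol. DP is an iron chelator, and ethanol was its vehicle. Both treatments lasted 3 h, and DP was used at 100 µM.

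All cells were primary MEFs of strain C57Bl/6 x 129Sv (F1) from e14.5 embryos, used at passage 4. The dKO cells carried compound homozygous conditional alleles for CBP and p300, and the WT cells did not. Both genotypes were exposed for 16 h, in 3% oxygen, to adenovirus that expresses Cre recombinase (100 infectious units per cell), so the virus and the earlier low oxygen were common to all groups. They were then kept in 3% oxygen for 48 h and in normoxia, with 5% CO2, for 24 h before the treatment. The dKO cells were MEF lines 1, 5 and 6 and the WT cells MEF lines 3, 4 and 5, and each line gave 1 array per treatment. The labels do not say whether each line came from a separate embryo, so p-values measure the spread between these lines. Because the alleles were recombined in culture, cells that escaped Cre cannot be told apart from recombined cells in these bulk samples. Less RNA of a gene per cell and fewer cells that express it cannot be told apart either.

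Cells that lack oxygen or usable iron stabilise hypoxia-inducible factor (HIF), because the prolyl hydroxylases that mark HIF for destruction need both. HIF binds short DNA motifs and recruits coactivators, among them the paralogous acetyltransferases CBP and p300, and it is well known for raising genes of vessel growth. VEGF-A is the main growth factor of endothelium, placental growth factor (Pgf) and VEGF-B bind the receptor FLT1, and VEGF-C acts mainly on lymphatic vessels. Adrenomedullin (Adm) and apelin (Apln) are peptide ligands of G protein-coupled receptors that dilate vessels and shape their growth. The angiopoietins Angpt1 and Angpt2 are ligands of the receptor TEK, and Angptl4 is a secreted inhibitor of lipoprotein lipase that also acts on endothelium.

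Promoter sequence is shown for 5 of these genes, so that the letters can be read beside the responses. Each window runs from 250 bases before to 50 bases after an annotated start, from RefSeq on GRCm38.p6, printed on the gene's strand. Windows matched 7 of the 10 genes by symbol, and Angpt1, Angpt2 and Angptl4 had none. Capitals mark ACGTG or GCGTG, the core letters of the HIF motif, on either strand, so the other strand shows as CACGT or CACGC. Either motif was found in 43.8% of 32851 such windows of mouse genes. No capital run lay within the palindrome CACGTG, which overlaps the first motif. The windows are Adm at chr7:110627407-110627706 on the + strand, Pgf at chr12:85177264-85177563 on the - strand, Vegfa at chr17:46032328-46032627 on the - strand and Vegfa at a second start inside the gene, chr17:46025114-46025413 on the - strand, Apln at chrX:48034804-48035103 on the - strand, and Vegfb at chr19:6987602-6987901 on the - strand.
Adm: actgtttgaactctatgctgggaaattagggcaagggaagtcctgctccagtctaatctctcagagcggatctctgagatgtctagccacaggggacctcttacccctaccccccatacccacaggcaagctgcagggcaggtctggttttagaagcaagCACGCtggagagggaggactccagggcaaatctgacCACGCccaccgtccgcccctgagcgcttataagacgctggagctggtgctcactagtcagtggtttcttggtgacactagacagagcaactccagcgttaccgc
Pgf: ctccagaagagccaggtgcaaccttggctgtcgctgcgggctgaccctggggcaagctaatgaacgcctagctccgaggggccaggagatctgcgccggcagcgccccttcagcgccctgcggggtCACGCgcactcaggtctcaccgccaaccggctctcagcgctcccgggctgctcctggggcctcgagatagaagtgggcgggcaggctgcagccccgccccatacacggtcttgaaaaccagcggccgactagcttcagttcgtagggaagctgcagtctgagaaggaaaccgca
Vegfa: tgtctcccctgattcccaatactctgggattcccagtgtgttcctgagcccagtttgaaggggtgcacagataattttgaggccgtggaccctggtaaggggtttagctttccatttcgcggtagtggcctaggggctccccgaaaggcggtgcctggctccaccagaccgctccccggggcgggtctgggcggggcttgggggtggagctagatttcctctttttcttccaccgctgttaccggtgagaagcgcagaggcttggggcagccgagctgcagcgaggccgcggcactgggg
Vegfa second start: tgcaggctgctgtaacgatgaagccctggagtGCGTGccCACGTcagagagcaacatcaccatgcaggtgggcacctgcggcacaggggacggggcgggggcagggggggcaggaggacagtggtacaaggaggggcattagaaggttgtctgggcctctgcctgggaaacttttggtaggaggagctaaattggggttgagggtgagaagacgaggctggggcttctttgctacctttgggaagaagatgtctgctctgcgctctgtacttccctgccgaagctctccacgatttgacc
Apln: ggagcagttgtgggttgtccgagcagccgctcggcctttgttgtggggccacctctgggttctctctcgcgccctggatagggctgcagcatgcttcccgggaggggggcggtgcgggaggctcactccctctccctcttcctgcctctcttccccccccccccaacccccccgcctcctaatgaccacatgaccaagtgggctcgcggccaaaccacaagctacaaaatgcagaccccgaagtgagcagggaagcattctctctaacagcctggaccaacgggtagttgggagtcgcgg
Vegfb: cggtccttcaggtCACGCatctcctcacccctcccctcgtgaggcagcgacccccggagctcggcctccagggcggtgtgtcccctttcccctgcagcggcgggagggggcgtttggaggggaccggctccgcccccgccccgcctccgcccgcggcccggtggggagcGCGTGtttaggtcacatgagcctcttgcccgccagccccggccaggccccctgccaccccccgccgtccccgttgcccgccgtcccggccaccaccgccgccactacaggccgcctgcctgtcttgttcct
Adm held 2 GCGTG motifs on the other strand, 90 and 54 bases before the start. Pgf held 1 on the other strand, 124 bases before this start, and no motif at its other start, chr12:85175933-85176232. Vegfa held no motif at its upstream start. At the start inside the gene it held GCGTG on the gene's strand 218 bases before and ACGTG on the other strand 211 bases before. That window lies wholly inside the gene, and the bases around both motifs read as VEGF-A coding sequence. Apln, whose RNA responded to DP as described below, held no motif in its window, and neither did Vegfc at chr8:54077282-54077581 or Angptl2 at chr2:33215711-33216010. Vegfb, whose RNA did not pass the test, held 2 GCGTG motifs, 237 bases before the start on the other strand and 81 bases before it on its own strand. A window with or without these letters thus occurred on both sides of the DP call, and the match describes the letters only.

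Values are log2 expression after normalisation by the authors, and a change is a difference of log2 values given with its standard error (SE). A value at or under the level of blank control probe sets, whose 95th percentile was 3.28 to 3.54 log2 over the arrays, is called near blank, and a change there is understated. The median array value ranged over 3.86 to 3.98 log2. With 3 arrays a group, precision is set by the number of arrays. The Crebbp probe set, for the gene of CBP, read 7.51 to 7.69 with DP and 7.02 to 7.68 with ethanol in dKO MEFs, against 8.21 to 8.55 with DP and 8.07 to 8.37 with ethanol in WT MEFs. It was lower in dKO in both treatments (adjusted p = 0.0022 with DP and 0.000992 with ethanol, limma), and the labels do not say whether it lies in the deleted part. The gene of p300 was not analysed here, so its deletion was not checked. The female-specific RNA Xist read 3.94 to 5.32 in the dKO arrays and 10.28 to 10.75 in the WT arrays, so the lines of the genotypes also differ in this mark of sex. The 3'-to-5' difference of the beta-actin control probes was 0.40 to 0.60 log2 in dKO arrays and 0.23 to 0.38 in WT arrays. The part of these differences in the genotype results below was not tested. Ethanol arrays of dKO line 1 and WT line 5 correlated least with the other arrays of their groups, and calls of the factors that change without both are named below. All 7 fibroblast markers (Col1a1, Col1a2, Col3a1, Pdgfra, Thy1, Dcn and Lum) were measured, and their summed linear level was 3974 to 6230 in dKO arrays and 16820 to 18860 in WT arrays. The Col1a2 probe set read only 3.25 to 4.85 log2. The 8 endothelial markers summed to 72.2 to 84.6 in dKO arrays and 82.9 to 92.3 in WT arrays, with Pecam1, Tek and Tie1 near blank in all groups. None of the 8 read above 4.32 log2 on any array, so these sums are mostly background. Pericyte and smooth muscle markers (5 of 6 measured) summed to 5216 to 6813 in dKO arrays and 8883 to 9796 in WT arrays. Most of that sum was Acta2, at 12.32 to 12.69 log2 in dKO arrays and 12.99 to 13.14 in WT arrays. The 5 epithelial markers summed to 76.0 to 106 in dKO arrays and 205 to 268 in WT arrays, with Cdh1 near blank. The 6 macrophage markers summed to 148 to 207 in dKO arrays and 97.6 to 220 in WT arrays, with Ptprc near blank. The macrophage markers did not move together: Cd68 was higher in dKO, while C1qa read 2.94 to 3.67 in dKO arrays and 3.63 to 5.78 in WT arrays and Tyrobp 3.05 to 3.34 in dKO arrays and 3.43 to 5.44 in WT arrays. WT line 3 read near the dKO arrays, with C1qa at 3.66 and Tyrobp at 3.43 with DP, and both at 3.63 with ethanol. In WT lines 4 and 5, C1qa read 5.18 to 5.78 and Tyrobp 4.59 to 5.44. The part of these marker levels in the genotype results below was not tested.

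DP raised 4 of the 9 measured factors, Vegfa, Pgf, Adm and Apln, in dKO MEFs and in WT MEFs, and lowered none at an adjusted p under 0.05. Of all genes, 1.01% rose in dKO (172 genes) and 3.05% in WT (522 genes). Those that fell were 0.491% in dKO and 1.67% in WT, so that 1.5% of genes changed in either direction in dKO and 4.73% in WT. The median log2 change of the 9 factors was 0.22 in dKO and 0.66 in WT, against -0.05 in dKO and -0.03 in WT over all genes. The sizes of both DP changes come from separate arrays, but their tests share a spread for each gene, estimated over the arrays of all groups. The p-values of both DP comparisons are therefore not independent. The genotype comparisons and the comparison of DP effects reuse the same arrays.

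Vegfa had values of 9.99, 10.15 and 9.88 with DP in dKO lines 1, 5 and 6, against 7.29, 7.56 and 7.17 with ethanol. In WT lines 3, 4 and 5 it had 10.79, 10.86 and 10.93 with DP, against 8.73, 8.98 and 8.78 with ethanol. The DP and ethanol arrays did not overlap in either genotype, where 20.7% of all genes in dKO and 22.6% in WT had no such overlap. All dKO arrays with DP lay above all WT arrays with ethanol, by at least 0.90 log2. The rise was 2.67 ± 0.12 in dKO, or 6.37-fold, and 2.03 ± 0.12 in WT, or 4.09-fold (adjusted p = 3.14e-08 in dKO and 2.01e-07 in WT, limma). Vegfa ranked 10 among all genes by size of rise in dKO and 52 in WT. A second Vegfa probe set rose too, by 2.02 ± 0.12 in dKO and 1.87 ± 0.12 in WT.

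Pgf, the placental member of the VEGF family, had 7.23, 7.53 and 6.44 with DP in the dKO lines, against 4.47, 4.61 and 4.30 with ethanol. In the WT lines it had 10.47, 10.64 and 10.55 with DP, against 6.24, 6.33 and 6.34 with ethanol. The lowest dKO array with DP lay only 0.10 log2 above the highest WT array with ethanol. The rise was 2.60 ± 0.21 in dKO, or 6.06-fold, and 4.25 ± 0.21 in WT, or 19.0-fold (adjusted p = 9.82e-06 in dKO and 4.59e-08 in WT, limma). Pgf was the gene of rank 12 by size of rise in dKO and of rank 5 in WT.

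Adm, the vasodilator peptide, had 9.41, 9.49 and 9.05 with DP in the dKO lines, against 8.19, 8.00 and 8.01 with ethanol. In the WT lines it had 10.78, 10.83 and 10.73 with DP, against 8.85, 8.65 and 8.84 with ethanol. Its groups stood in the same order as those of Vegfa, WT with DP highest and dKO with ethanol lowest, without overlap. The rise was 1.25 ± 0.12 in dKO, or 2.38-fold, and 2.0 ± 0.12 in WT, or 4.0-fold (adjusted p = 5.61e-05 in dKO and 2.61e-07 in WT, limma).

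Apln, the ligand of the receptor APLNR, had 7.08, 7.47 and 6.54 with DP in the dKO lines, against 4.68, 4.94 and 4.56 with ethanol. In the WT lines it had 9.20, 9.10 and 9.36 with DP, against 5.46, 5.37 and 5.63 with ethanol. The groups again did not overlap, and the arrays of dKO with DP were the most spread, with an SD of 0.47. The rise was 2.30 ± 0.19 in dKO, or 4.93-fold, and 3.74 ± 0.19 in WT, or 13.3-fold (adjusted p = 1.53e-05 in dKO and 8.06e-08 in WT, limma). It ranked 16 by size of rise in dKO and 7 in WT.

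**Figure D1:**
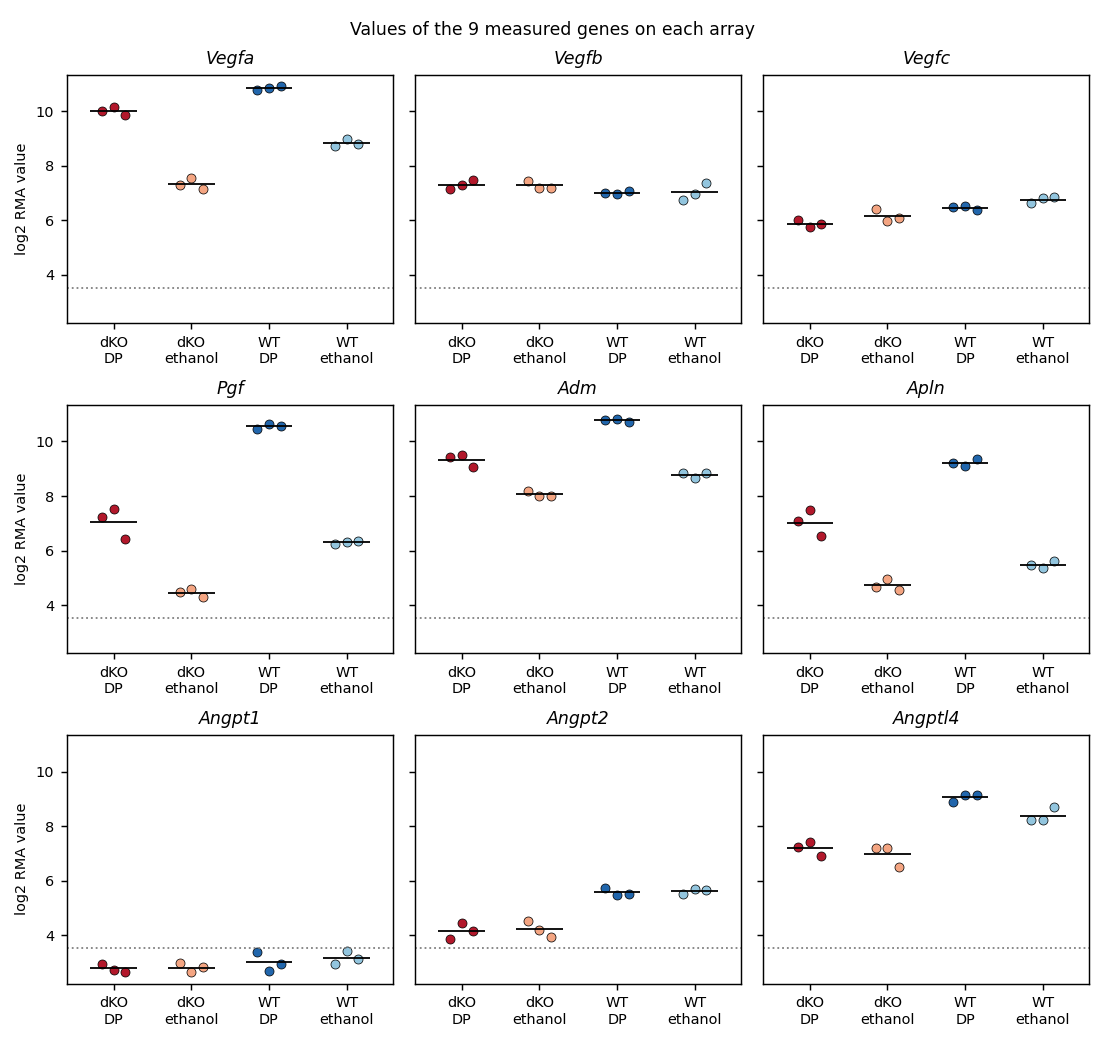
Log2 values of the 9 measured factors in each of the 12 arrays, with the 4 groups along each x axis, log2 expression on the y axis, points for arrays, bars for group means and a dotted line at 3.54, the highest 95th percentile of the blank controls. Vegfa, Pgf, Adm and Apln show 4 separate levels, Angpt2 and Angptl4 mainly separate the genotypes, and Angpt1 lies near the dotted line.

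The other 5 measured factors did not pass the test for DP in either genotype. Angptl4, which inhibits lipoprotein lipase, had 7.24, 7.43 and 6.90 with DP in the dKO lines, against 7.20, 7.19 and 6.50 with ethanol. In the WT lines it had 8.90, 9.14 and 9.13 with DP, against 8.24, 8.22 and 8.71 with ethanol. The WT groups did not overlap and the dKO groups did, where 20.7% of all genes in dKO and 22.6% in WT had DP and ethanol groups without overlap. The change was 0.22 ± 0.20 in dKO (95% interval -0.22 to 0.66, adjusted p = 0.639) and 0.66 ± 0.20 in WT (95% interval 0.22 to 1.1, adjusted p = 0.0998, limma). With the MEF line as a block, pairing the arrays of a line, the WT change of Angptl4 passed (adjusted p = 0.0142). It also passed without the WT ethanol array of line 5, at 0.82 (adjusted p = 0.0493), and also with the ethanol array of dKO line 6 left out, at 0.66 (adjusted p = 0.0383). Without both ethanol arrays that stood apart it passed at 0.82 (adjusted p = 0.0333), and with only the arrays compared at 0.66 (adjusted p = 0.0463). With array weights it passed in both genotypes, at 0.60 in dKO (adjusted p = 0.0351) and 0.79 in WT (adjusted p = 0.0156).

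Vegfc, the lymphatic growth factor, had 6.01, 5.77 and 5.87 with DP in the dKO lines, against 6.42, 5.98 and 6.09 with ethanol. In the WT lines it had 6.50, 6.52 and 6.37 with DP, against 6.62, 6.80 and 6.84 with ethanol. The means were lower with DP in both genotypes, and the arrays overlapped in dKO and not in WT. The change was -0.28 ± 0.12 in dKO (adjusted p = 0.337) and -0.29 ± 0.12 in WT (adjusted p = 0.262, limma).

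Vegfb, which binds FLT1 and is abundant in muscle and heart, had 7.14 to 7.48 with DP and 7.18 to 7.46 with ethanol in dKO, against 6.97 to 7.08 with DP and 6.76 to 7.39 with ethanol in WT. Its DP change was 0.02 ± 0.15 in dKO (95% interval -0.31 to 0.35) and -0.02 ± 0.15 in WT (95% interval -0.35 to 0.31). These intervals leave out a change of the size seen for Adm in either genotype.

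Of the angiopoietins, Angpt2 had 3.88, 4.46 and 4.16 with DP in the dKO lines, against 4.54, 4.21 and 3.93 with ethanol, and 5.47 to 5.75 with DP against 5.52 to 5.69 with ethanol in WT. Its DP change was -0.06 ± 0.17 in each genotype, and the single lines differed in direction in both genotypes. Angpt1 read 2.65 to 3.44 over the 12 arrays and its mean was near blank in every group, so its level was not measurable here. A second probe set each of Angpt2 and Angptl4 was also near blank and passed no test.

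**Figure D2:**
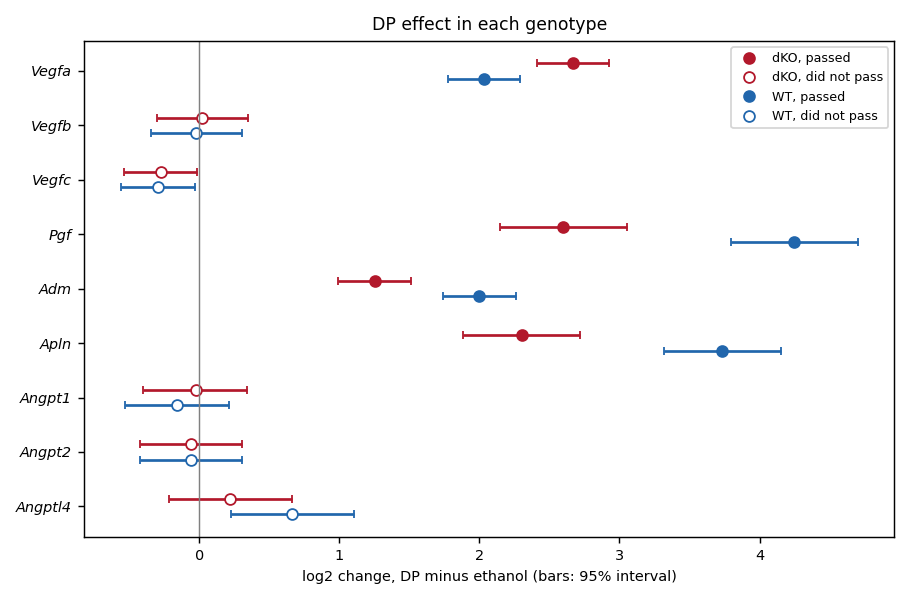
Change with DP against ethanol for each measured factor, in log2 on the x axis, with dKO and WT as separate points, bars for the 95% interval and filled points for changes past the adjusted p of 0.05. Vegfa lies further to the right in dKO (2.67) than in WT (2.03), while Pgf, Adm and Apln lie further to the right in WT, and the other 5 factors are open points nearer 0.

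Whether the DP response itself differed between the genotypes was asked with the difference of the DP effects, dKO minus WT, over all genes. It was below 0 past the adjusted p of 0.05 for 2 of the 9 factors, Pgf and Apln, and above 0 for none. The background was 0.515% of genes below 0 (88 genes) and 0.0468% above 0 (8 genes), 0.562% in all. The median over the 9 factors was -0.00, against -0.02 over all genes. The changes of single lines below are description, since the share of all genes whose lines stay apart between genotypes was not computed.

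Pgf rose by 2.75, 2.92 and 2.13 in dKO lines 1, 5 and 6, against 4.24, 4.30 and 4.21 in WT lines 3, 4 and 5. The difference was -1.65 ± 0.29 (95% interval -2.29 to -1.01, adjusted p = 0.0236, limma), and the value of every dKO line was under that of every WT line. With ethanol Pgf read 4.30 to 4.61 in dKO, nearer the blank level than the 6.24 to 6.34 in WT. Whether this understated its dKO rise was not tested. The call was lost when 1 of 6 arrays was left out, the ethanol arrays of WT lines 3 and 4 and of dKO line 5 and the DP arrays of WT lines 3, 4 and 5 (adjusted p = 0.0538 to 0.0759). Without the 2 ethanol arrays that stood apart the difference was -1.66 (adjusted p = 0.0785).

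Apln rose by 2.40, 2.53 and 1.97 in the dKO lines, against 3.74, 3.74 and 3.73 in the WT lines. Its difference was -1.43 ± 0.27 (95% interval -2.03 to -0.84, adjusted p = 0.0363, limma), with all dKO lines under all WT lines. Apln too read nearer the blank level in dKO with ethanol, 4.56 to 4.94 against 5.37 to 5.63 in WT. The part of this in the difference was not tested. The call was lost without any 1 of 9 arrays, the ethanol arrays of WT lines 3 and 4 and of dKO lines 1, 5 and 6, the DP arrays of WT lines 3, 4 and 5, and the DP array of dKO line 1 (adjusted p = 0.0581 to 0.128). Without the 2 ethanol arrays that stood apart it was -1.53 (adjusted p = 0.0684).

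Adm and Vegfa did not pass, and their lines did not overlap. Adm rose by 1.23, 1.49 and 1.04 in the dKO lines, against 1.92, 2.18 and 1.89 in the WT lines, a difference of -0.75 ± 0.17 (95% interval -1.12 to -0.38, adjusted p = 0.106). Vegfa ran the other way, with 2.71, 2.59 and 2.71 in the dKO lines, against 2.06, 1.89 and 2.15 in the WT lines. Its difference was 0.64 ± 0.17 (95% interval 0.28 to 1.00, adjusted p = 0.225, limma), and the second Vegfa probe set gave 0.15 ± 0.16. With ethanol that probe set read 4.28 to 4.39 in dKO, nearer the blank level than the 5.86 to 6.14 in WT. Whether this understated its dKO rise was not tested. The unadjusted intervals of Vegfa, on the probe set used, and of Pgf, Apln and Adm lay on opposite sides of 0. An opposite response of Vegfa did not pass the adjusted threshold.

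For Angptl4 the lines gave 0.03, 0.24 and 0.40 in dKO, against 0.66, 0.91 and 0.42 in WT, and the difference was -0.44 ± 0.29 (95% interval -1.06 to 0.18). The remaining differences were 0.04 for Vegfb (95% interval -0.42 to 0.50), 0.02 for Vegfc (95% interval -0.36 to 0.39) and -0.00 for Angpt2 (95% interval -0.52 to 0.51). Angpt1, near blank, had 0.14 (95% interval -0.39 to 0.66). All 5 of these intervals include 0.

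**Figure D3:**
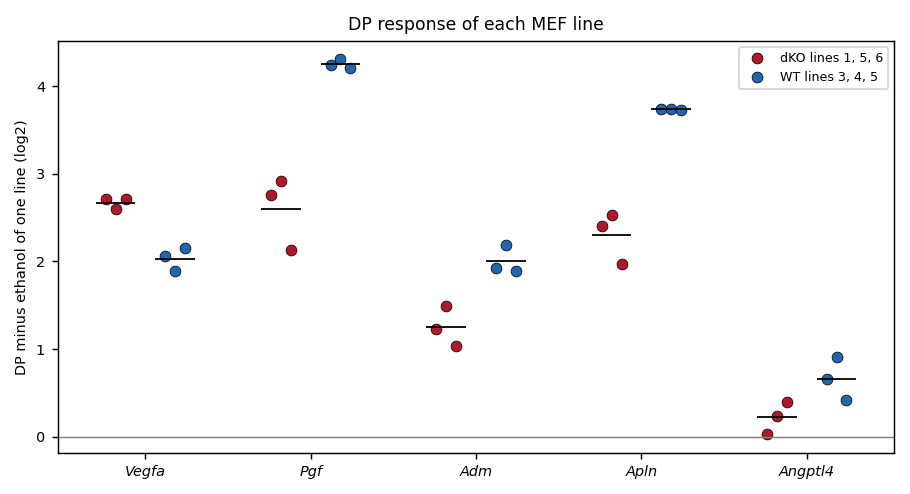
Change with DP minus ethanol within each MEF line, in log2 on the y axis, for Vegfa, Pgf, Adm, Apln and Angptl4, with a point for each line, black lines for means and dKO lines 1, 5 and 6 left of WT lines 3, 4 and 5. The WT lines of Pgf (4.21 to 4.30) and Apln (3.73 to 3.74) lie close together, the dKO lines are lower and more spread, and the dKO lines of Vegfa lie above the WT lines.

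More of the factors differed by genotype than with DP. In ethanol 7 of the 9 were lower in dKO and none higher, where 14.1% of all genes were lower (2407 genes), 19.5% were higher and 33.6% differed in either direction. With DP the count was again 7 lower and none higher, where 16.9% of all genes were lower (2886 genes), 18.5% were higher and 35.4% differed in either direction. The median difference of the 9 factors, dKO minus WT, was -1.40 with DP and -0.76 in ethanol, against -0.01 over all genes in both. Under cyclic loess normalisation the share of called genes that were higher in dKO moved to 46.2%, against 58.1%, in ethanol, and to 44.3%, against 52.4%, with DP, and all 7 factors stayed lower in both.

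Among the factors that DP raised, Pgf differed most, by -3.49 ± 0.21 with DP and -1.84 ± 0.21 in ethanol (adjusted p = 1.06e-07 with DP and 1.81e-05 in ethanol, limma). Apln differed by -2.19 ± 0.19 with DP (adjusted p = 2.28e-06) and by -0.76 ± 0.19 in ethanol (adjusted p = 0.0080). Without the 2 ethanol arrays that stood apart, the ethanol difference of Apln was -0.66 and did not pass (adjusted p = 0.0553). Apln is X-linked, and the genotypes differ in Xist as given above. Adm differed by -1.46 ± 0.12 with DP and -0.71 ± 0.12 in ethanol, and both passed (adjusted p = 1.26e-06 with DP and 0.000426 in ethanol). For Vegfa the order of sizes was the reverse, -0.86 ± 0.12 with DP and -1.49 ± 0.12 in ethanol (adjusted p = 9.01e-05 with DP and 1.12e-06 in ethanol). The second Vegfa probe set put the difference with DP at -1.52 and that in ethanol at -1.67.

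Angpt2 and Angptl4 separated the genotypes in both treatments, the dKO arrays lying below every WT array, where 53.8% of all genes with DP and 40% in ethanol had genotypes without overlap. Angpt2 differed by -1.40 ± 0.17 in each treatment (adjusted p = 2.80e-05 with DP and 2.97e-05 in ethanol). Angptl4 differed by -1.87 ± 0.20 with DP and -1.43 ± 0.20 in ethanol (adjusted p = 1.25e-05 with DP and 0.000117 in ethanol). Vegfc differed by -0.58 ± 0.12 with DP and -0.59 ± 0.12 in ethanol, and both passed (adjusted p = 0.00231 with DP and 0.00188 in ethanol). These 3 factors therefore differed by genotype and did not pass for DP.

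Vegfb was the one measured factor whose dKO mean was the higher in both treatments, by 0.28 ± 0.15 with DP and 0.24 ± 0.15 in ethanol, and neither passed (adjusted p = 0.176 with DP and 0.262 in ethanol). Without the WT ethanol array of line 5, its ethanol difference was 0.41 and passed (adjusted p = 0.0274), and with array weights it was 0.28 and passed (adjusted p = 0.0442). Without both ethanol arrays that stood apart, the difference with DP passed at 0.28 (adjusted p = 0.0394). Angpt1 differed by -0.22 with DP and -0.35 in ethanol, near blank, and passed in neither.

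**Figure D4:**
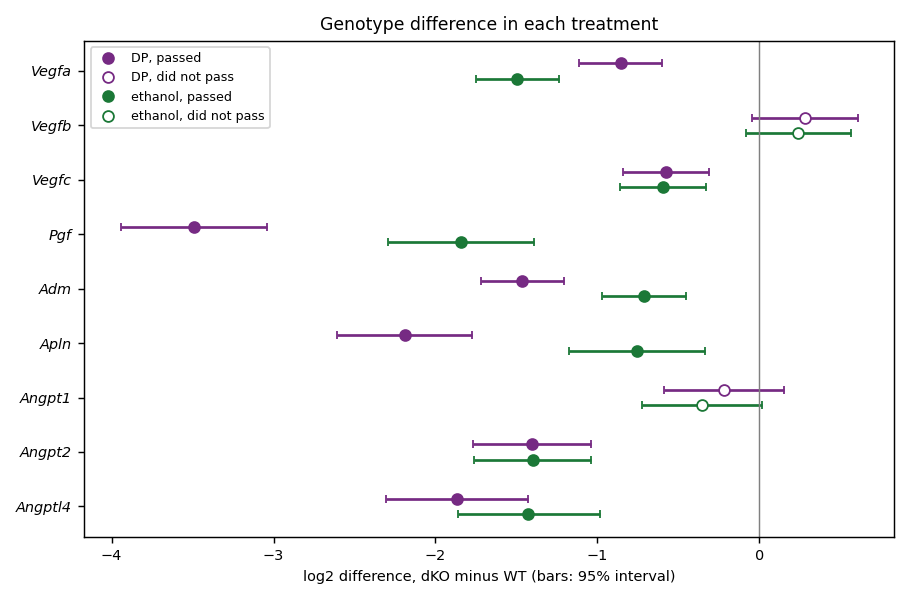
Difference between genotypes, dKO minus WT, for each measured factor, in log2 on the x axis, with DP above ethanol, bars for the 95% interval and filled points for differences past the adjusted p of 0.05. All filled points lie left of 0, Pgf with DP the furthest at -3.49, and Vegfb lies right of 0 with open points.

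Of the receptors of these ligands, all 13 on the list (Flt1, Kdr, Flt4, Nrp1, Nrp2, Tek, Tie1, Aplnr, Calcrl, Ramp1, Ramp2, Ramp3 and Ackr3) were measured. None passed for DP in dKO, where 2 had an unadjusted p under 0.05 in limma and 1.01% of all genes rose, and 1 rose in WT, where 3.05% of all genes did. That one was Ackr3, a scavenger receptor that binds adrenomedullin and the chemokine CXCL12. It had 5.96, 6.56 and 5.64 with DP in the dKO lines, against 5.48, 5.82 and 5.14 with ethanol. In WT it had 8.99, 8.77 and 9.05 with DP, against 7.71, 7.47 and 7.99 with ethanol. The change was 0.57 ± 0.23 in dKO (adjusted p = 0.294) and 1.22 ± 0.23 in WT (adjusted p = 0.0062, limma). The dKO change of Ackr3 passed as well once the MEF line was a block (adjusted p = 0.0318), and at 0.83 with array weights (adjusted p = 0.0167). It was 0.32 without the DP array of dKO line 5 (adjusted p = 0.594). For Ackr3, the difference of its DP effects did not pass (-0.64 ± 0.32, adjusted p = 0.88).

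Between genotypes, 9 of the 13 receptors were lower in dKO with DP, where 16.9% of all genes were lower, and 7 in ethanol, where 14.1% were. None passed as higher, and the median difference was -1.19 with DP and -0.83 in ethanol. Nrp1 and Nrp2, the neuropilin coreceptors of VEGF, were both lower. Nrp1 differed by -1.61 ± 0.17 with DP and -1.62 ± 0.17 in ethanol, and Nrp2 by -2.66 ± 0.25 with DP and -2.61 ± 0.25 in ethanol. Flt1, the receptor shared by VEGF-A, VEGF-B and Pgf, differed by -1.20 ± 0.17 with DP and -1.24 ± 0.17 in ethanol. Ramp3, a partner of the adrenomedullin receptor, differed by -1.66 ± 0.16 with DP and -1.58 ± 0.16 in ethanol, and Calcrl, that receptor itself, by -1.23 ± 0.25 with DP and -0.83 ± 0.25 in ethanol. Ackr3 differed by -2.88 ± 0.23 with DP and -2.24 ± 0.23 in ethanol. Ramp2, another partner of that receptor, had a higher mean in dKO, by 0.64 ± 0.26 with DP (adjusted p = 0.0743) and by 0.63 ± 0.26 in ethanol (adjusted p = 0.0786). Neither passed, and with DP its genotypes did not overlap, as for 53.8% of all genes. Tek and Tie1, the angiopoietin receptor and its relative, were near blank in all groups.

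Of 30 other secreted or cell-surface factors listed as promoting vessel growth, 27 were measured. DP raised 2 of them in WT, Hbegf and Efna1, where 3.05% of all genes rose, and none in dKO, where 1.01% of all genes rose. In dKO none of the 27 had an unadjusted p under 0.05 in limma either. Hbegf, a ligand of the EGF receptor, had 9.62, 9.15 and 9.65 with DP in the dKO lines, against 9.39, 8.90 and 9.33 with ethanol. In the WT lines it had 11.19, 10.99 and 11.00 with DP, against 9.38, 9.29 and 9.24 with ethanol. The WT arrays with DP stood apart from the other 3 groups, which lay together. The change was 0.27 ± 0.15 in dKO (adjusted p = 0.437) and 1.75 ± 0.15 in WT (adjusted p = 1.04e-05, limma). The difference of the DP effects was -1.49 ± 0.22 and passed (adjusted p = 0.00566), and it was the 1 gene of the 27 to do so. Unlike Pgf and Apln, Hbegf did not pass for genotype in ethanol (-0.09 ± 0.15), and with DP it differed by -1.58 ± 0.15 (adjusted p = 4.91e-06).

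Efna1, the ephrin ligand of EPHA2, was up by 0.51 ± 0.13 in WT (adjusted p = 0.0384, limma) and had a change of 0.18 ± 0.13 in dKO. Its call in WT was lost under median centring (adjusted p = 0.0686), with an intensity trend (adjusted p = 0.0875) and without any 1 of 6 arrays, the ethanol arrays of WT lines 4 and 5, the DP arrays of WT lines 3, 4 and 5, and the DP array of dKO line 1 (adjusted p = 0.0603 to 0.175). Between genotypes, 13 of the 27 were lower in dKO with DP and 12 in ethanol, against 16.9% of all genes with DP and 14.1% in ethanol. Higher in dKO were 3 in each treatment, against 18.5% of all genes with DP and 19.5% in ethanol. Lower in dKO was Vegfd, a lymphatic VEGF that is also X-linked, with -3.12 ± 0.16 with DP and -2.77 ± 0.16 in ethanol. So were the growth factors Fgf7, with -2.13 ± 0.23 with DP and -2.36 ± 0.23 in ethanol, and Pdgfc, with -2.21 ± 0.17 with DP and -2.20 ± 0.17 in ethanol. Ccn1, a matricellular protein that promotes vessel growth, was higher in dKO, by 1.15 ± 0.08 with DP and 1.02 ± 0.08 in ethanol. Its relative Ccn2 was higher by 0.82 ± 0.10 with DP and 0.58 ± 0.10 in ethanol, and the EGF receptor ligand Tgfa by 0.77 ± 0.13 with DP and 0.62 ± 0.13 in ethanol.

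Of 15 secreted factors listed as restraining vessel growth, 12 were measured. DP raised none. It lowered 1 in WT, Adamts1, a protease that binds VEGF, with a change of -0.63 ± 0.14 (adjusted p = 0.0199, limma). In dKO lines 1, 5 and 6 Adamts1 changed by -0.12, -0.34 and -0.35. The difference of its DP effects did not pass (0.36, adjusted p = 0.93, limma). In dKO DP lowered none, and 1 had an unadjusted p under 0.05 in limma, against 2 in WT. The 1 in dKO was Vash2, at -0.56 (adjusted p = 0.128, limma), which passed with array weights at -0.41 (adjusted p = 0.0485). The WT change of Vash2 was close to this, -0.48 ± 0.16 (adjusted p = 0.129, limma). Vash2 is counted here as listed, although its place among factors that restrain vessel growth is not clear-cut. Of all genes, 0.491% fell in dKO and 1.67% in WT. The Adamts1 call was lost without the WT ethanol array of line 3 and without the WT DP array of line 4 or 5 (adjusted p = 0.079 to 0.105). Between genotypes 11 of the 12 were lower in dKO with DP and 9 in ethanol, and none was higher, against 16.9% of all genes lower with DP and 14.1% in ethanol. Col18a1, the source of endostatin, differed by -3.78 ± 0.15 with DP and -4.07 ± 0.15 in ethanol. Timp3, which blocks VEGF binding to KDR, differed by -3.05 ± 0.12 with DP and -2.75 ± 0.12 in ethanol, and Thbs2, a thrombospondin, by -2.59 ± 0.23 with DP and -2.31 ± 0.23 in ethanol. The fibroblast marker level given above was also lower in dKO, and its part in these list counts was not tested.

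**Figure D5:**
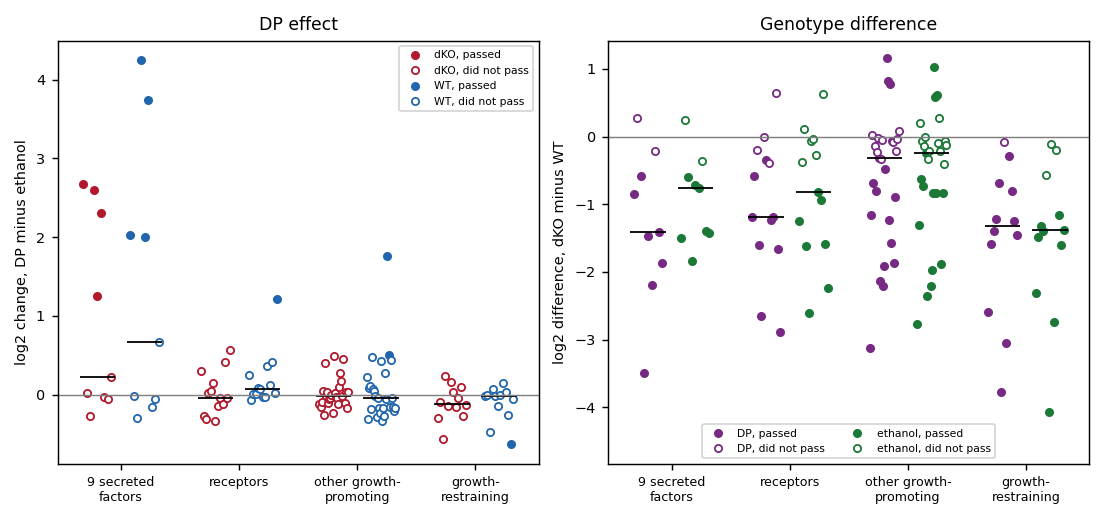
Log2 changes for each gene of the 9 measured factors, the 13 receptors, the 27 other growth-promoting factors and the 12 growth-restraining factors, with DP minus ethanol in dKO and WT on the left and dKO minus WT with DP and in ethanol on the right. Filled points passed the adjusted p of 0.05 and black lines are medians, which lie between -0.12 and 0.08 on the left for the 3 lists other than the 9 factors.

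The genes most like each factor over the 12 arrays were found among 8910 other genes whose mean reached 5 log2, by Pearson's r. The arrays share 4 groups and 6 lines, so r describes the group pattern. For Vegfa they were Hk2 (0.983), Bhlhe40 (0.979) and Fam162a (0.978), and for Pgf they were Egln3 (0.988), Rab33a (0.985) and Adamts9 (0.981). Adm was nearest to Egln3 (0.991), Hilpda (0.988) and Adamts9 (0.985), and Apln to Ppp1r3c (0.995), Hilpda (0.989) and Egln3 (0.983). Genes picked by r over these arrays tend to share the DP changes of their factor, so the values that follow only describe the pick. Hk2 shared with Vegfa a larger DP change in dKO than in WT, 2.52 against 2.01. For Vegfa that difference did not pass, and it was small on the second probe set, which read low in dKO with ethanol. Ppp1r3c shared with Apln a smaller DP change in dKO, 2.73 in dKO against 4.64 in WT. The neighbours of Angpt2 were Spata13 (0.991), Pxdn (0.988) and Emp2 (0.985), and those of Angptl4 were Hic1 (0.994), Fndc1 (0.991) and Synpo (0.987). With only 3 genes kept for each factor, none of these 6 was among those kept for a factor that DP raised.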

How the data were processed

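Gene expression in 12 samples of 4 groups was measured on Affymetrix arrays. Per the submitters' processing notes the authors used RMA and Affymetrix Expression Console 1.1, and the deposited values are on the log2 scale, 1 for each probe set. RMA corrects background, normalises between arrays and compresses small differences at low signal. Control probe sets (104) were set aside. Of 45141 probe sets, 28898 list 1 gene symbol, 551 list several and 15588 list none, and the highest mean stood for each of 17097 genes. No dim gene was left out.

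Tests used limma 3.58.1 in R 4.3.3 (lmFit, eBayes). The fit had a mean for each of the 4 groups, a spread for each gene shared by all groups, and no block. Benjamini-Hochberg adjustment ran over all genes of a contrast, with a threshold of 0.05. The code was tested on simulated data. Tables used Python 3.11.15.

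The pairing comes from the labels, where a numbered MEF of a genotype received both treatments. Deviations from the group means of its DP and ethanol arrays had a correlation of 0.04, 0.32 and 0.36 for dKO lines 1, 5 and 6, and of 0.42, 0.06 and 0.33 for WT lines 3, 4 and 5. Equal numbers in different genotypes were not treated as pairs.

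Members and gene lists were chosen with earlier results of these data known. All measured members were named, with up to 4 called genes per list and contrast, or the 2 of largest change where none was called, and the 3 nearest genes of each member whose group means span at least 1 log2. The text leaves out some list genes that this rule selects and names some outside it, such as Flt1, Ccn1, Ccn2 and Tgfa. Calls of genes outside the rule were not compared under the alternatives. Alternatives were the line as a block, median centring, cyclic loess, array weights, an intensity trend, a filter on the dimmest 40% of genes, every probe set or their mean, the arrays compared alone, and leaving out each array or the 2 ethanol arrays that stood apart. Scanned intensity files were not used here.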

Additional observations from a re-analysis of the deposited data

Results flagged for a closer look

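A difference between the DP effects of the genotypes, dKO minus WT, tested as an interaction in limma, marked 3 results. Pgf had -1.65 and Apln -1.43, each with a smaller rise in every dKO line than in any WT line. Both read nearer the blank level in dKO with ethanol than in WT with ethanol. The share of all genes with lines apart in this way was not computed. Hbegf had -1.49, with line changes of 0.23, 0.26 and 0.32 in dKO against 1.81, 1.70 and 1.75 in WT. The Hbegf difference passed under all 21 alternatives run for it (adjusted p = 0.000524 to 0.0284), while those of Pgf and Apln were lost under some. No explanation was tested.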

How the results depend on the processing

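The rises of Vegfa, Pgf, Adm and Apln with DP passed in both genotypes under all alternatives. Of 991 member values recomputed, 914 kept their direction and their side of the threshold. With the line as a replicate block, pairing DP and ethanol arrays, Angptl4 in WT (adjusted p = 0.0142) and Ackr3 in dKO (adjusted p = 0.0318) gained a call. No other call of a member, or of a list gene in a contrast for which the rule selected it, changed. The number of genes called moved over 1.5 times as follows, with the cause not tested except where fewer arrays or more probe sets make it. For DP in WT 808 became 1295 with array weights, with a range of 538 to 1010 when 1 array was left out (538 without the WT DP array of line 4). For DP in dKO 256 (172 higher, 84 lower) became 1477 with array weights (602 higher, 875 lower) and 142 with only the arrays compared, with a range of 153 to 326 when 1 array was left out (153 without the DP array of dKO line 1, 160 without that of line 6). For dKO against WT, 6057 with DP became 9227 with every probe set. When 1 array was left out the range was 4999 to 6648 with DP and 4724 to 6180 in ethanol. For the difference of DP effects 96 became 267 with array weights, with a range of 69 to 109 when 1 array was left out. Members called for the difference were 4 with array weights (Vegfa and Adm joined, adjusted p = 0.015 and 0.0203). They were 0 without the 2 ethanol arrays that stood apart, where 4 had an unadjusted p under 0.05 in limma, and 0 to 2 when 1 array was left out. Members called for DP in WT ranged over 4 to 5 and for genotype in ethanol over 7 to 8 when 1 array was left out. Scaling moved the share of called genes that were higher with DP in dKO to 82.3% (cyclic loess) and 80.6% (median centring), against 67.2%.

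Apart from Angpt2 in ethanol, signs turned for values that had not passed and passed under no such alternative. For DP in WT these were Vegfb, at 0.039 (cyclic loess), 0.078 (array weights) and 0.15 (without the 2 ethanol arrays), Angpt2, at 0.041 (mean of probe sets) and 0.14 (other probe set), and Angptl4, at -0.019 (other probe set). For DP in dKO they were Angpt2, at 0.016 (cyclic loess), 0.15 (array weights) and 0.10 (without the 2 ethanol arrays), Angpt1, at 0.003 (median centring) and 0.048 (without the 2 ethanol arrays), and Thbs2, at 0.07 (array weights). The genotype difference of Angpt2 in ethanol, which had passed at -1.40, was 0.057 with its other probe set, near blank in all groups. For the difference they were Angpt2, at 0.045 (cyclic loess), 0.084 (median centring), 0.21 (array weights) and 0.13 (without the 2 ethanol arrays), Angptl4, at 0.085 (other probe set), and Vegfb, at -0.012 (array weights) and -0.043 (without the 2 ethanol arrays). When 1 array was left out, signs also turned within ranges of -0.16 to 0.15 for Vegfb with DP in WT, and, with DP in dKO, -0.115 to 0.048 for Angpt1, -0.21 to 0.10 for Angpt2, -0.070 to 0.110 for Vegfb and -0.011 to 0.367 for Angptl4. For the difference the ranges were -0.15 to 0.15 for Angpt2, -0.074 to 0.146 for Vegfc, -0.13 to 0.18 for Vegfb and -0.015 to 0.322 for Angpt1. No separate value for the difference came from only the arrays compared.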
